A study of Mus musculus with 8 samples.

Results

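The 8 RNA-seq libraries of this molar study fell into 3 with high and 5 with low levels of enamel transcripts, and the comparison of these 2 sets of libraries is described here. The sets were chosen by the measured value of *Amelx*: a library counted as high with a value of 5000 or more and as low with a value under 2000. Controls 3 and 4 and mutant 3 were high, and controls 1 and 2 and mutants 1, 2 and 4 were low, so that all 8 of 8 libraries were used. The split was therefore selected on the data and crosses the study's own groups.

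The study asked what loss of the histone methyltransferase Ezh2 from dental mesenchyme does to the molar. Controls were *Ezh2 fl/fl* mice, which carry floxed *Ezh2* alleles without Cre, and mutants were *Osr2KI-Cre;Ezh2 fl/fl* mice, in which Cre is expressed from the *Osr2* locus and recombines *Ezh2* in the dental mesenchyme. All mice were labelled C57BL/6, although the paper's methods describe the background as mixed, and were taken at postnatal day 3, with 4 libraries per genotype. RNA came from the mesenchyme of molars whose epithelium had been taken off, so the enamel-forming epithelium was not meant to be in the sample. The labels do not say whether a library is 1 animal or a pool. Controls 1, 3 and 4 and mutant 4 had both *Xist* and Y-linked transcripts, with values given below, and the other libraries did not. The unit of replication may thus differ between libraries, which was not tested. The p-values below measure the spread between these libraries only.

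Enamel is laid down by ameloblasts, epithelial cells that face the odontoblasts of the tooth mesenchyme. In the secretory stage they release amelogenin (*Amelx*), ameloblastin (*Ambn*) and enamelin (*Enam*), which form the enamel matrix, together with the protease *Mmp20*, which processes it. In the later maturation stage they switch to other products, among them *Klk4*, *Amtn* and *Odam*. Dentin is the product of odontoblasts, which secrete *Dspp* and type I collagen.

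*Amelx* had a value of 349, 1377, 9733 and 16250 in controls 1 to 4 and of 807, 376, 7818 and 316 in mutants 1 to 4. Mutant 3 was the member just inside the high set and control 2 the one just outside it. These values chose the sets and are no result of the comparison, and *Amelx* is left out of every count below. Values are the authors' normalized values, scaled so that the upper quartile of each library is close to 38.46, and 1 read was worth between 0.0129 and 0.019. Estimated depth was 52.8, 61.9 and 64.1 M reads in the high libraries and 48.3 to 68.8 M in the low ones, so the sets overlapped in depth. *Amelx* was the gene with rank 2, 2 and 4 by value in the 3 high libraries, and with ranks 35 to 383 in the low ones. *Amelx*, *Ambn* and *Enam* together made up 1.24% to 2.99% of the summed values in the high libraries and 0.076% to 0.256% in the low ones.

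The label of the sets was checked against *Ambn* and *Enam*. *Ambn* had a value of 340, 493, 2666 and 6884 in controls 1 to 4 and of 420, 430, 1415 and 336 in mutants 1 to 4. *Enam* had a value of 37.1, 428, 3116 and 5146 in the controls and of 56.4, 23.6, 2048 and 23.3 in the mutants. For both genes all 3 high libraries lay above all 5 low ones. On the log2(value + 1) scale and adjusted for genotype, the difference between high and low libraries was 5.40 ± 0.71 (SE) for *Enam* and 2.72 ± 0.38 for *Ambn* (3 high and 5 low libraries). In bulk tissue, more ameloblasts and more enamel RNA per ameloblast cannot be told apart.

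A group of 95 genes, among them *Enam* and *Ambn*, was higher in the high libraries, while 2 genes were lower. A gene was counted as higher where the genotype-adjusted difference was at least 2-fold and every high library lay above every low library of its own genotype, and as lower where both held in the other direction. The rule changes in some alternatives given below. Without mutant 3 no mutant is high, so the high and low sets are then compared within the controls alone. Without the genotype term every high library is set against every low library. With all libraries, the share of higher genes was 0.64% of 14853 tested genes and the share of lower genes 0.0135%. With no limit on size, 1201 genes (8.09%) had all high libraries above the low ones of their genotype and 1233 (8.3%) had them below. The contrast is the one that *Amelx* was used to set up, so these counts are a description and carry no test. The median difference of the 95 genes was 1.48, and 83 of them were annotated as protein coding. In 87 of the 95, all 3 high libraries also lay above all 5 low ones without regard to genotype.

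**Figure D1:**
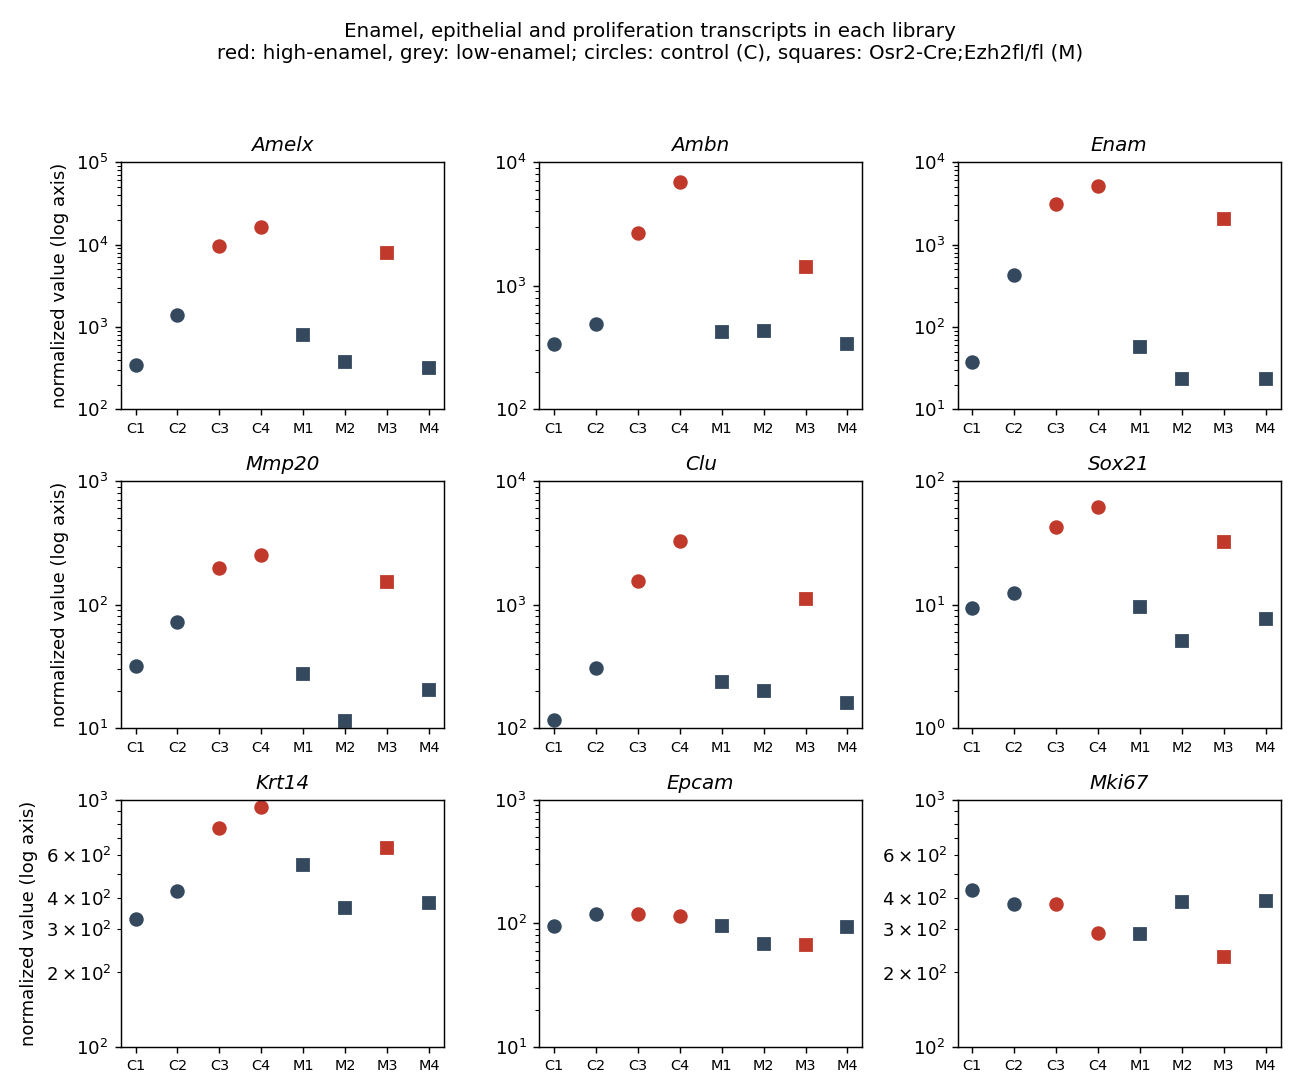
Normalized value (log axis) of 9 genes in each library, with circles for controls (C) and squares for mutants (M), red for high-enamel and grey for low-enamel libraries; each point is 1 library and no error bars are drawn. *Ambn*, *Enam*, *Mmp20*, *Clu* and *Sox21* lie higher in all 3 red libraries, whereas *Epcam* has a value of 114 to 119 in the red controls and 66.1 in the red mutant.

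Of the enamel matrix and enamel protease list, 6 of 8 genes other than *Amelx* passed the filter (4 or more libraries reaching a value of 1), and 4 were higher, beside 0.64% of all tested genes: *Ambn*, *Enam*, *Mmp20* and *Odam*. *Mmp20* had a value of 31.8, 71.6, 199 and 252 in controls 1 to 4 and of 27.4, 11.5, 153 and 20.5 in mutants 1 to 4, a difference of 2.53 ± 0.33 (SE). *Odam* had a value of 52, 53.9, 106 and 180 in the controls and of 39, 29.9, 76 and 40.5 in the mutants. The difference of *Odam* was 1.23 ± 0.18, and its high and low libraries did not overlap. *Tuft1*, which encodes tuftelin, was separated within each genotype but by less than 2-fold, with a difference of 0.47. *Klk4*, the protease of enamel maturation, had values of 5.52, 2.95 and 1.98 in controls 3 and 4 and mutant 3 and reached 4.41 in the low library control 2, so its sets overlapped. *Amtn*, another maturation gene, had values between 0.099 and 0.352 in all libraries and was not tested, and the same held for *Odaph*, listed under its older symbol *Gm1045*, at 0.106 to 0.282. The median difference of the 6 tested genes was 1.88, against -0.01 over all tested genes. With no filter, the median over all 8 genes was 0.92.

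Ameloblast genes that are not part of the matrix were mixed. Of 12 tested, 4 were higher: *Acp4* (listed as *Acpt*), *Relt*, *Itgb6* and *Slc13a5*, all 4 of them genes whose loss is known to disturb enamel, beside 0.64% of all tested genes. *Slc13a5* was just past the size limit with a difference of 1.01. The count was 3 in 6 alternatives, among them a pseudocount of 5 and the fits without control 1, control 4 or mutant 2. Another of the 6 was the filter of a value of at least 10, which *Acpt* did not pass. *Acpt*, an acid phosphatase, had a value of 1.62, 7.42, 50.9 and 93.2 in controls 1 to 4 and of 2.42, 0.911, 32.6 and 1.17 in mutants 1 to 4, a difference of 3.85 ± 0.38 (SE). *Relt*, a receptor of the tumour necrosis factor family, had a value of 8.74, 14.4, 29 and 39.5 in the controls and of 7.94, 5.07, 20.9 and 7.8 in the mutants. The integrin subunit *Itgb6* differed by 1.32 ± 0.24, with 25.4 to 36 in the high libraries and 6.9 to 16.4 in the low ones. In contrast, the transcription factor *Sp6* differed by 0.10 and *Dlx3* by -0.23, both with overlapping libraries. *Sp6* is expressed in dental epithelium from early stages and *Dlx3* also in dental mesenchyme. *Slc24a4*, an ion exchanger of maturation-stage ameloblasts, was at 0.121 to 0.325 throughout and did not pass the filter. The median difference of this list was 0.24.

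Epithelial cells rest on a basement membrane, to which laminins and hemidesmosomes anchor them. *Lama3*, a laminin chain gene of epithelia, had a value of 21.4, 24.9, 93.1 and 165 in controls 1 to 4 and of 17.5, 15.4, 50.6 and 15.4 in mutants 1 to 4. The difference was 2.04 ± 0.21 (SE), and all 3 high libraries lay above all 5 low ones. *Lamb3* was separated as well but differed by 0.84, under the size limit. Of the hemidesmosome genes, *Itgb4*, *Dst* and *Itga6* were separated upward by 0.30, 0.29 and 0.25, and *Col17a1* (0.21) and *Plec* (-0.03) were not separated. Of 9 tested genes in the list, 2 were higher, 6 were separated upward and 0 downward, beside 0.64%, 8.09% and 8.3% of all tested genes.

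General epithelial genes were present in all 8 libraries and differed much less than the enamel genes. The keratin *Krt14*, of basal epithelium, had a value of 329, 428, 768 and 938 in controls 1 to 4 and of 542, 365, 637 and 381 in mutants 1 to 4, a difference of 0.92 ± 0.18 (SE). The adhesion molecule *Epcam* had a value of 95.6, 118, 119 and 114 in the controls and of 95.9, 67.5, 66.1 and 92.5 in the mutants. *Epcam* was thus not higher in the high set, with a difference of -0.07 ± 0.15. *Trp63*, the transcription factor of stratified epithelium, differed by 0.34 and *Cdh1*, encoding E-cadherin, by 0.65. None of the 7 keratins, 18 junction and polarity genes and 12 transcription and splicing factors that were tested was 2-fold higher or lower. The number of 2-fold higher keratins was 0 to 2 in the alternatives. *Krt27* and *Cldn20*, outside these lists and chosen after their values were seen, were higher by 1.18 and 1.91. Of the listed genes, 2 keratins, 3 junction genes and 3 factors were separated upward and 0 of each list downward, beside 8.09% and 8.3% of all tested genes. These counts changed with the libraries used. Without mutant 3 the controls alone are compared. There, 5 keratins, 13 junction genes and 5 factors were separated upward, beside 19.5% of all tested genes in that fit. Without mutant 1 the counts were 3, 7 and 5, beside 12%. The median difference was 0.53 for keratins, 0.10 for junction genes and 0.13 for factors.

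These epithelial lists differed more within the controls than within the mutants. The median difference of the keratins was 0.78 between controls 3 and 4 and controls 1 and 2, and 0.17 between mutant 3 and the other mutants. For junction genes the medians were 0.29 and -0.07. The summed value of the junction list was 1890, 2280, 2660 and 2920 in controls 1 to 4 and 2040, 1590, 1900 and 1680 in mutants 1 to 4, with *Dsp* as its most abundant gene. Mutant 3, a high library, thus lay below mutant 1, a low one. The summed enamel list without *Amelx* was 473, 1060, 6110 and 12500 in the controls and 555, 503, 3710 and 431 in the mutants, with *Ambn* as its most abundant gene. Whether carried-over epithelium took part in the difference between the sets was not tested.

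Signals and factors of dental epithelium gave 1 higher gene of 14 tested, *Sox21*, a transcription factor known from ameloblast differentiation. *Sox21* had a value of 9.31, 12.3, 42.2 and 61.2 in controls 1 to 4 and of 9.56, 5.06, 32.3 and 7.64 in mutants 1 to 4, a difference of 2.09 ± 0.20 (SE). *Shh*, a signal of dental epithelium, differed by 0.38 with overlapping libraries. *Wnt6*, *Wnt10a* and *Satb1* were separated upward by 0.60, 0.56 and 0.33. Over all tested genes, 0.64% were higher and 8.09% separated upward. In the fit without mutant 3, 8 of the 14 genes were separated upward, beside 19.5% of all tested genes. Cornified oral epithelium had low values, with a summed list value of 21.7 to 41.2 in the 8 libraries and *Krt6a* as its most abundant gene. None of its 5 tested genes was 2-fold higher or lower, and 1 was separated upward. *Krt4* and *Krt13* were under 1 in every library, and *Ivl*, *Flg*, *Sprr1a* and *Sprr1b* were not analysed here.

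Among the 10 largest differences outside *Amelx* were also genes that no list held. *Clu*, encoding the secreted chaperone clusterin, had a value of 117, 309, 1560 and 3280 in controls 1 to 4 and of 238, 200, 1100 and 159 in mutants 1 to 4. The difference was 3.10 ± 0.38 (SE) and the sets did not overlap. *Bnc1*, a zinc finger factor of epithelial cells, had 9.24 to 28.9 in the high and 0.531 to 2.11 in the low libraries. *Ctnna2*, an alpha-catenin best known from neurons, had 271 to 439 in the high and 30.3 to 71.4 in the low libraries, and *Fxyd4*, a regulator of the sodium pump, had 10.1 to 12 and 0.364 to 1.73. *Calb1*, encoding the calcium-binding calbindin and chosen after its values were seen, had 983 to 1210 in the high and 164 to 291 in the low libraries.

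A different pattern was seen in *Gm10260* and *Rps2-ps10*, which also stood among the 10 largest differences. *Gm10260* had a value of 0.512, 0.214, 82.9 and 269 in controls 1 to 4 and of 60.3, 0.981, 185 and 81.1 in mutants 1 to 4. *Rps2-ps10*, annotated as a processed pseudogene, had 1.99, 1.87, 38.1 and 143 in the controls and 34.7, 1.59, 80.6 and 46 in the mutants. Controls 1 and 2 and mutant 2 were thus near the bottom, and mutants 1 and 4, with low enamel transcripts, were in between. *BC023719* and *H2-T10*, chosen after their values were seen, had the same 3 libraries lowest, and *BC023719* had 0 estimated reads in each of them. Reads of pseudogenes and of near-identical gene copies can be shared between copies, so these values are uncertain. *BC023719* is antisense to another gene and the labels do not state strand use, which makes it uncertain as well. What sets these 3 libraries apart for the 4 genes was not tested.

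Sex-linked transcripts entered both directions of the comparison. *Xist*, expressed from the inactive X chromosome, had a value of 518, 0.373, 767 and 669 in controls 1 to 4 and of 0.414, 1950, 2650 and 401 in mutants 1 to 4. The only 2 lower genes were the Y-linked *Ddx3y* and *Eif2s3y*. *Ddx3y* had 46.4, 82.6, 43.5 and 31.2 in the controls and 73, 0.0455, 0.0424 and 56.9 in the mutants. Mutants 2 and 3 each had 2 estimated reads of *Ddx3y* and 1 of *Eif2s3y*, so the place of mutant 3 below mutant 2 for both genes rests on values at the detection floor of 3 reads. Controls 1, 3 and 4 and mutant 4 had both *Xist* and Y-linked transcripts, control 2 and mutant 1 had Y-linked transcripts with *Xist* under 0.5, and mutants 2 and 3 had *Xist* with Y-linked transcripts near the floor. Sex was not balanced between the sets, and its part in the result was not tested beyond the fit with *Xist* as a further term. That term, added after the data were seen, gave 145 higher and 6 lower genes, with 94 of the 95 among the 145. *Ddx3y* and *Eif2s3y* were not among the 6, with differences of -0.66 and -0.57 under that term.

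Dentin genes divided. *Dspp*, the main noncollagenous dentin precursor, had a value of 1330, 2090, 2800 and 2330 in controls 1 to 4 and of 770, 556, 2330 and 799 in mutants 1 to 4. It was the only gene of 15 tested in the odontoblast list that was counted as higher, with a difference of 1.09 ± 0.26 (SE), and without mutant 3 the difference was 0.62. It was also under 2-fold with quantile normalization (0.83, not separated), with the replicate block (0.56) and without mutant 2 (0.997). In the other direction *Smpd3*, *Panx3*, *Dmp1*, *Sp7* and *Nes* were separated downward by less than 2-fold, with differences of -0.57, -0.47, -0.49, -0.35 and -0.27. The collagen gene *Col1a1*, the most abundant of the list, differed by -0.26 with overlapping libraries. That gives 5 of 15 genes separated downward and 1 upward, beside 8.3% and 8.09% of all tested genes. Without control 2, 5 were separated downward and 4 upward, beside 15.9% and 15.4%, and 2 were 2-fold higher. With quantile normalization 7 were separated downward and 0 upward, beside 8.47% and 8.12%. With the replicate block 0 were 2-fold higher and 2 were 2-fold lower, beside 195 and 41 over all tested genes.

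Dental papilla cells give rise to odontoblasts and pulp, and follicle cells to the tissues that hold the tooth. Of 12 dental papilla genes 0 were 2-fold changed, 2 (*Msx1* and *Barx1*) were separated downward and 1 (*Tfap2b*) upward, with a median of -0.15. *Fgf10* and *Fgf3* differed by -0.87 and -0.74 with overlapping libraries. Of 9 dental follicle genes 0 passed the size limit and 3 (*Aspn*, *Igfbp5* and *Lepr*) were separated upward, with a median of 0.38, and *Aspn* differed by 0.88. Beside these counts, 8.3% of all tested genes were separated downward and 8.09% upward. In the fit without control 2, 5 papilla genes were separated downward and 1 of the list was 2-fold lower. In the fit without control 3 these counts were 6 and 2. Of all tested genes, 15.9% were separated downward in each of these fits. In the follicle list 1 gene was 2-fold higher with the replicate block and with the *Xist* or the continuous *Ambn* and *Enam* term. The same count was reached without control 2, control 3 or mutant 3. Leaving out mutant 1 or mutant 3 gave 5 follicle genes separated upward, beside 12% and 19.5% of all tested genes. *Igfbp5* was the most abundant follicle gene and *Vim* the most abundant papilla gene. *Vim* was between 1080 and 1650 in every library.

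Cycling cells express genes of DNA replication and mitosis together. Of 11 proliferation genes, 3 (*Ccnb1*, *Birc5* and *Plk1*) were separated downward, beside 8.3% of all tested genes, and 0 passed the size limit. All 11 had a negative difference, with a median of -0.38, although *Mcm2* (0.11) and *Pcna* (0.20) were positive within the controls. *Mki67*, a marker of cycling cells, had a value of 432, 377, 378 and 289 in controls 1 to 4 and of 287, 385, 230 and 390 in mutants 1 to 4. The summed list was 1310, 1180, 1210 and 1000 in the controls and 1090, 1170, 767 and 1300 in the mutants, lowest in mutant 3. The median was -0.22 within the controls and -0.61 within the mutants. The median was between -0.72 and -0.22 in the alternatives, whereas the 3 separated genes became 0 with median-of-ratios scaling, with quantile normalization and without the genotype term, and 9 without control 2 or control 3. In the fits without control 2 or control 3, 15.9% of all tested genes were separated downward, and 3.7% without the genotype term. Without that term every high library is set against every low library, which is a stricter rule.

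Muscle, blood, bone-resorbing, vessel and nerve cells can be carried along with the dissected tissue. The summed skeletal muscle list, with *Acta1* as its most abundant gene, was 14.2, 14.1, 15.2 and 64.2 in controls 1 to 4 and 20.3, 13.9, 6.87 and 12.2 in mutants 1 to 4, so that of the high libraries control 4 had the most and mutant 3 the least. The macrophage and osteoclast list, led by *Ctsk*, was 365, 1360, 506 and 663 in the controls and 815, 362, 1070 and 346 in the mutants, highest in control 2, a low library. Erythroid transcripts had a median difference of -0.68 within the controls and 1.00 within the mutants. Endothelial genes had a median within 0.1 of 0 in the 8-library comparison, and Schwann cell and nerve genes and immediate early and heat shock genes did so too. The Schwann cell and nerve median was -0.09 within the controls and 0.52 within the mutants. In these 6 lists 0 genes were 2-fold changed and separated with all libraries. Without control 2, however, 3 of 10 macrophage and osteoclast genes were 2-fold higher and 5 separated upward, beside 15.4% of all tested genes separated upward in that fit. Without control 2 or control 3, 1 Schwann cell and nerve gene was 2-fold higher. Without mutant 3, 1 erythroid gene was 2-fold lower with 4 of 5 separated downward, and 4 of 7 muscle genes were separated upward, beside 24.4% and 19.5% of all tested genes.

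**Figure D2:**
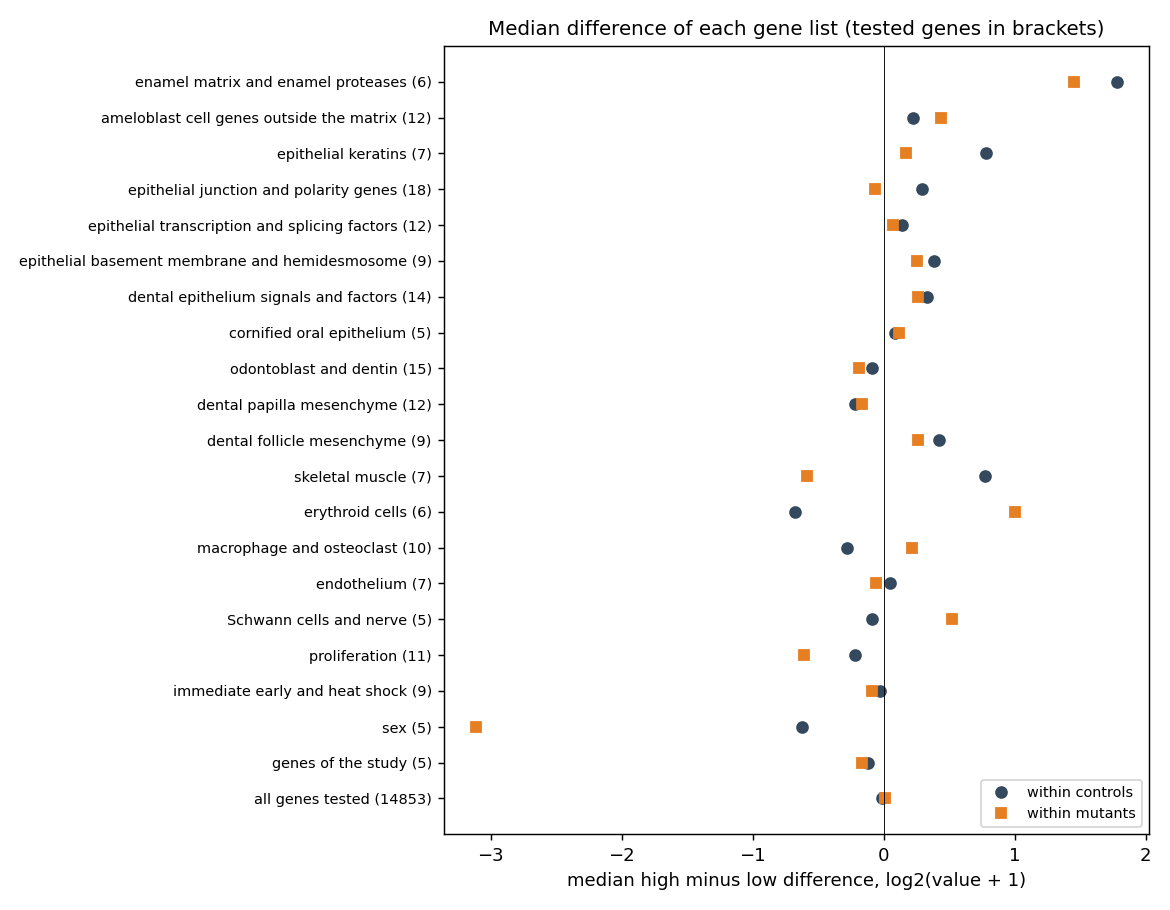
Median difference in log2(value + 1) between high and low libraries for each gene list, with circles for controls 3 and 4 against controls 1 and 2 and squares for mutant 3 against mutants 1, 2 and 4; brackets give the number of tested genes. The enamel list has medians of 1.78 and 1.45, while several lists, such as muscle, erythroid cells, and Schwann cells and nerve, have opposite signs in the 2 genotypes.

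The difference could be read within each genotype, since no library is shared between the 2 readings. Within the controls, 118 genes were 2-fold higher in controls 3 and 4 with both above controls 1 and 2, and 8 were lower. Within the mutants, 149 genes (1% of those tested) were 2-fold higher in mutant 3 and above all other mutants, and 21 (0.141%) were lower. The lists of higher genes shared 73 genes, which is 61.9% of the control list and 49% of the mutant list. The lists of lower genes shared 0. *Amelx* placed the libraries in both genotypes, so the shared genes are a description of that choice. Across the 14853 genes the 2 differences had a Pearson r of 0.448, with genes not being independent of each other.

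**Figure D3:**
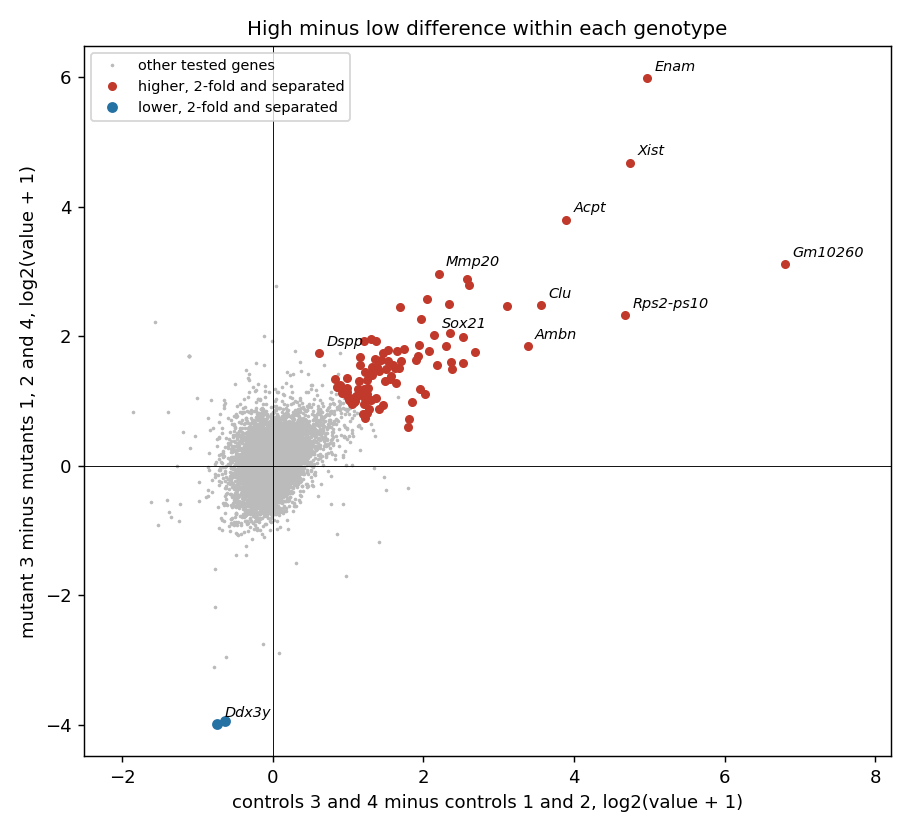
Difference in log2(value + 1) between high and low libraries within controls (horizontal axis) and within mutants (vertical axis), 1 point per tested gene without *Amelx*. The 95 higher genes are red and the 2 lower genes, *Ddx3y* and *Eif2s3y*, are blue; *Gm10260* lies far to the right, with 6.80 within controls and 3.11 within mutants.

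The low libraries were not alike. Control 2 lay above control 1 in 90 of the 95 genes, and mutant 1 lay above mutants 2 and 4 in 70 of them. *Enam*, for example, was 428 in control 2 and 37.1 in control 1. Among the high libraries, control 4 lay above control 3 in 88 of the 95 genes and was the highest of all 8 in 79. Mutant 3 was the highest in 12. The first principal component of the tested genes, which held 37.9% of the variance, placed control 4 at 27.1, control 3 at 15.6 and mutant 3 at 10.5, followed by control 2 at 5.63 and mutant 1 at 5.27. Control 1 was at -14.3 and mutants 4 and 2 at -20.5 and -29.3. The sign of that component was set so that the high libraries have the higher mean. The 3 high libraries lay next to each other at that end, which is a description, as the component includes the genes that follow *Amelx*.

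Genotype was then compared at equal enamel group, a contrast the split did not use. *Ezh2*, the deleted gene, had a value of 55, 38.3, 39.6 and 39 in controls 1 to 4 and of 35.2, 30.1, 23.2 and 36 in mutants 1 to 4. Every mutant lay below every control, and the difference was -0.54 ± 0.13 (SE) with an adjusted p of 0.0703 in limma. The value covers the whole gene and all cells in the sample, so it does not show the deleted exons or cells without Cre. *Ezh2* passed the threshold in 4 alternatives, among them the fit without control 2 and the fit with *Ambn* and *Enam* as a continuous term. With the enamel group in the model, 220 genes (1.48%) were upregulated in mutants and 88 (0.592%) downregulated among 14854 tested at an adjusted p under 0.05.

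Among genes past the adjusted p threshold, the 5 largest rises on the log2(value + 1) scale were *Extl1*, *Hand2*, *Olfr1372-ps1*, *Tcf24* and *Col9a1*. *Hand2*, a transcription factor of jaw and limb patterning, had a value of 0.143, 0.188, 0.103 and 0.214 in controls 1 to 4 and of 6.5, 5.87, 4.81 and 7.25 in mutants 1 to 4. The log2 fold change was 2.56 ± 0.12 (SE), with an adjusted p of 6.43e-05 in limma and 4 of 4 mutants above every control. *Hand2*, *Tcf24* and *Cdkn2a* reached a value of 1 in the 4 mutants alone. Passing the filter thus already set all 4 mutants above every control for these genes. With no filter the change of *Hand2* was 2.56 as well. The genotype difference was 2.69 within the low libraries and 2.33 between mutant 3 and the high controls. *Cdkn2a*, a cell cycle inhibitor gene, had 0.122 to 0.155 in the controls and 1.5 to 2.23 in the mutants, and its difference was 1.34 in both sets. For genes with low control values the size depends on the pseudocount: with 0.1 added, *Hand2* rose by 4.52, *Tcf24* by 3.42 and *Cdkn2a* by 3.06, ahead of *Olfr1372-ps1* at 2.42. *Arid1a* and *Osr2* did not pass, with adjusted p of 0.626 and 0.57.

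Among genes past the adjusted p threshold, the 5 largest falls on the same scale were *Vat1l*, *Sh2d4a*, *Rab37*, *Nptx2* and *Fam131b*. With a pseudocount of 0.1 *Nptx2* (-1.94) passed *Vat1l* (-1.79). *Rab37*, a small GTPase of secretory vesicles, had a value of 48.8, 40.5, 27.2 and 35.6 in controls 1 to 4 and of 17.4, 17.6, 12.7 and 14 in mutants 1 to 4, a log2 fold change of -1.34 ± 0.12 (SE) with an adjusted p of 0.00197 in limma. It was also lower in the high than in the low libraries of each genotype. *Fam131b* fell by 1.21 (adjusted p = 0.0304) and missed the threshold without the enamel group, with the replicate block and without control 1, control 3 or control 4. *Vat1l* also missed it without control 1, where its change was -1.65. Without mutant 3 the rises of *Extl1* and *Col9a1* and the 5 falls were not past the threshold, while the changes stayed of similar size, for example -1.40 for *Rab37*, -1.49 for *Sh2d4a* and -1.49 for *Vat1l*. *Hand2*, *Tcf24* and *Cdkn2a* did not pass the filter in that fit, since they reach a value of 1 in mutants alone.

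Taking the enamel group into the model changed which genes passed more than how many. Without it, 232 genes (1.56%) were upregulated and 76 (0.512%) downregulated, and 199 and 58 genes were shared with the fit that had it. Of the ameloblast list, *Slc13a5* and *Fam20a* passed with the enamel group in the model, with adjusted p of 0.0223 and 0.00978 in limma against 0.0949 and 0.0751 without it. Their differences were larger without it, at -1.40 and -1.09 against -1.14 and -0.90, and whether the fits differ was not tested. *Sp6* of the same list passed without the enamel group (adjusted p = 0.035) and missed with it (0.0512). *Slc13a5*, a citrate transporter, had 11.7, 22.1, 30.6 and 38.8 in controls 1 to 4 and 7.87, 5.41, 14.3 and 7.77 in mutants 1 to 4. Of the 6 tested enamel matrix genes 0 passed in this limma fit and 4 had an unadjusted p under 0.05. Of all 14854 tested genes, 813 were lower and 1166 higher in mutants at that limit. The differences of the 6 genes lay between -1.62 ± 0.68 (SE) for *Enam* and -0.19 ± 0.15 for *Tuft1*. Enamel levels were not equal within a group, as *Amelx* in mutant 3 was below both high controls, so a genotype effect on these genes cannot be told apart from that. Of the junction list *Dsp*, *Dsg2*, *Dsc2* and *Prom2* were downregulated, 4 of 18, beside 0.592% of all genes. The median genotype difference was -0.41 for the whole junction list, -0.34 for the epithelial factors and -0.31 for the keratins. It was 0.043 for cornified oral epithelium and 0.011 over all tested genes. Whether the amount of epithelium in the libraries took part was not tested.

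The genotype counts fell when most single libraries were left out, and most without mutant 3. Without it, 9 genes were upregulated and 0 downregulated in limma, and 682 and 513 genes had an unadjusted p under 0.05. Of the 308 genes passing with all libraries, 287 could be tested in that fit, and all 287 kept their sign with an unadjusted p under 0.05; the fits share libraries. Within the 5 low libraries 1 gene was upregulated and 0 downregulated of 14435, with 568 and 421 at an unadjusted p under 0.05. The fit without mutant 3 has no high mutant, so its genotype difference is that of the low libraries. For *Ezh2* the difference was -0.435 in both fits. The fits differ in the libraries that estimate the spread and are not separate results. In the low libraries only, the upregulated gene was a single gene. That gene was *Cthrc1*, chosen after its values were seen, with 58.1 to 74.4 in the controls and 134 to 167 in the mutants. Without the other libraries in turn the counts were 84 to 464 upregulated and 33 to 219 downregulated. The fit with the replicate number as a block gave 57 and 23.

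*Ambn* and *Enam* lie beside each other on chromosome 5, at chr5:88455991-88468531 and chr5:88487975-88506049 of mm10, both on the plus strand. *Amtn*, at chr5:88376108-88385916, and *Odam*, at chr5:87885029-87894174, are in the same stretch, yet *Amtn* was near the floor of the values and *Odam* was higher by 1.23. *Dspp* and *Dmp1* lie further along, at chr5:104170712-104180127 and chr5:104202613-104214102, and had differences of 1.09 and -0.49. *Amelx*, at chrX:169176114-169187200 on the minus strand, lies within the span of *Arhgap6* on the plus strand, and 0 annotated *Arhgap6* exons overlap it.

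The bases just before the start of 4 enamel genes that were high together are shown to let the windows be compared, from the RefSeq promoter table of GRCm38.p6, in which all 4 matched. Each run holds the 250 bases upstream of the start, read 5′ to 3′ on the gene's strand: *Amelx* at chrX:169187210-169187459 (minus), *Ambn* at chr5:88455741-88455990 (plus), *Enam* at chr5:88487725-88487974 (plus) and *Mmp20* at chr9:7627981-7628230 (plus). Starts are those of RefSeq, and for *Amelx* the RefSeq start differs by some bases from the GENCODE coordinates above. Capitals mark matches on either strand to the TATA box word TATAAA, the CCAAT box, the homeodomain core TAATT and the Runx core TGTGGT.
Amelx: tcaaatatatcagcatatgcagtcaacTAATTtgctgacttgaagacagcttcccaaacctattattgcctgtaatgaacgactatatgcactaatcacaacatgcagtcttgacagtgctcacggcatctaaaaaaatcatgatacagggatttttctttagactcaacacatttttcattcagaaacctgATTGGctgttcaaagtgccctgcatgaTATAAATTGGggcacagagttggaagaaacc
Ambn: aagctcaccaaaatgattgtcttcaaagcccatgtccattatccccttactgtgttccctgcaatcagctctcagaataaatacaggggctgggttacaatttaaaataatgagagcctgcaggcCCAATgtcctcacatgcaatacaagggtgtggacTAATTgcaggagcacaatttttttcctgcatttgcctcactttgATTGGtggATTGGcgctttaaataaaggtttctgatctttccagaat
Enam: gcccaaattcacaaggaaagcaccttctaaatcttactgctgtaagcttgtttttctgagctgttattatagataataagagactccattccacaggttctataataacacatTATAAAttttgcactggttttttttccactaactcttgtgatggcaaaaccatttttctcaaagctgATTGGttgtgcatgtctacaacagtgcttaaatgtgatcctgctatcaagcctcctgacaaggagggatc
Mmp20: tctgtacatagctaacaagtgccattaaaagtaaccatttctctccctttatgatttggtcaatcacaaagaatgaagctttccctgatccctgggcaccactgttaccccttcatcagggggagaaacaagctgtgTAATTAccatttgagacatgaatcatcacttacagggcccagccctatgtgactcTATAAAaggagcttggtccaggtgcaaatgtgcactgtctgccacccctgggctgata

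TATAAA was found in the windows of *Amelx*, *Enam* and *Mmp20*, with its first base 31, 137 and 58 bases before the start, and in 12.4% of 32851 promoters. CCAAT was found in *Amelx*, *Ambn* and *Enam* and in 33.8% of promoters. In the *Amelx* window a reverse match to CCAAT overlaps the TATA box. TAATT was found in *Amelx*, *Ambn* and *Mmp20* and in 25% of promoters, and in *Mmp20* its matches on both strands overlap. TGTGGT was found in none of the 4 windows and in 14% of promoters. A match is a description of the letters and no site of binding.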

How the data were processed

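RNA-seq values of 8 molar mesenchyme libraries were used, 4 per genotype, and no library was left out. The deposited values are a signal, normalized by the authors to a common upper quartile; they carry no gene length and are not whole reads. The paper's methods name TopHat and RPKM, whereas the submitters' processing notes list CASAVA 1.8.2, STAR 2.5.3a, Partek and the mm10 genome, so the values are not RPKM, and the values do not settle which aligner was used. No value is 0. The smallest value of a library was taken as the worth of 1 read and as the offset of a gene without reads, and estimated reads are the value divided by it, minus 1.

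Values were compared as log2(value + 1) in limma 3.58.1 (R 4.3.3, with trend, Benjamini-Hochberg adjustment), with terms for genotype and enamel group, over genes that reached a value of 1 in 4 or more libraries. Fold changes on this scale understate low genes. The enamel contrast is described by size and separation, without p-values; genotype was tested. Members, lists and rule were chosen with earlier results of these data known. Named genes are list members, the 10 largest differences in each direction, the 5 largest genotype rises and falls past the adjusted p threshold, and the study's genes. Others are marked. Lists covered enamel matrix, ameloblast, epithelium, odontoblast, papilla, follicle, muscle, blood, macrophage, endothelium, nerve, proliferation, stress, sex and study genes, 206 of 211 found. Coordinates are from GENCODE on mm10. The model was tested on simulated data. Alternatives were pseudocount, filter, scaling, block, covariates, trend, size limit and each library left out.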

Additional observations from a re-analysis of the deposited data

Results flagged for a closer look

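In 96 groups of 4 or 5 libraries examined, 6 single values stood far from the others of their group, where chance gives about 1 in 20, or 4.8. *Xist* had a value of 0.373 in control 2, far below the other controls. *Ddx3y*, at 0.0455, and *Eif2s3y*, at 0.0303, were far below the other low-enamel libraries in mutant 2. *Bnc1* had a value of 9.24 in mutant 3, far above the other mutants, which is the library that the *Amelx* rule set apart. *Amtn* had a value of 0.155 in control 3, below the other controls, with 8 estimated reads. *Ezh2* had a value of 55 in control 1, above the other controls.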

How the results depend on the processing

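Of the 95 higher genes, the count was 61 with a pseudocount of 5, 58 with a value of at least 10 required, 259 with a 1.5-fold limit, and 145 with *Xist* as a further term, an alternative added after the data were seen; the stricter filter tests fewer genes. The 2 lower genes became 7 with a pseudocount of 0.1, 5 without a filter and 37 with a 1.5-fold limit. They became 6 with the *Xist* term and 0 without genotype, where every high library must lie below every low library. Neither *Ddx3y* nor *Eif2s3y* was among the 6, or among the 8 without mutant 3, where the controls alone are compared. Leaving out 1 library gave 76 to 137 higher and 2 to 8 lower genes. Genotype counts of 220 and 88 became 95 and 50 at a value of at least 10 and 365 and 180 with the *Xist* term. In low libraries only they were 1 and 0. Leaving out 1 library gave 9 to 464 and 0 to 219, lowest without mutant 3. That fit has no high mutant, so its genotype difference is that of the low libraries only. The cause of the other shifts was not tested.

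With the replicate number as a block there were 195 higher and 41 lower genes, and 57 and 23 by genotype. Deviations of same-numbered libraries correlated at -0.342, -0.0769, 0.215 and -0.434, so the values do not show pairing by number, although the paper's methods mention 3 pairs beside 4 mice per group. Replicate 4 is the only number with 1 high and 1 low library, and the blocked enamel difference rests on it. The depth limits values near 3 reads, and 1 mutant library carries the high side of that genotype.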
